A study of Mus musculus with 2 samples.

Results

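Foxp3 and 7 other genes of regulatory T cells (Ikzf2, Ikzf4, Nrp1, Lrrc32, Izumo1r, Il10 and Ebi3) were followed in T cells from EMT6 tumours. The genes were chosen by name and not by a threshold on their values. They and the gene lists used below were, however, chosen with earlier results of these data known. They are 8 of the 32285 genes counted, and each matched 1 gene identifier. EMT6 is a transplantable mouse mammary carcinoma line. It was grown under the skin of BALB/c mice aged 4 to 6 weeks, which were randomised at tumour volumes of 80 to 150 mm3. One group received mSTAR1302 antibodies into the peritoneum over 2 cycles at 1 dose per week, and the other received vehicle, whose composition was not stated in the labels. Both groups carried the same tumour and had the same bead enrichment of CD4+ and CD8+ cells from digested tumours. Each group was 1 library, the labels do not say how many mice it came from, and no test between groups was possible. All 95% intervals below cover counting error only.

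Regulatory T cells restrain other T cells and are mostly CD4+ cells. Foxp3 is the transcription factor that defines the lineage. Helios (Ikzf2) and Eos (Ikzf4) are zinc finger factors of the Ikaros family that are common in these cells, and Eos is a partner of Foxp3 in gene silencing. On the cell surface, neuropilin-1 (Nrp1) is a co-receptor for semaphorins and VEGF that is also made by macrophages, GARP (Lrrc32) docks latent TGF-beta, and folate receptor 4 (Izumo1r) is a marker of regulatory and of anergic CD4+ cells. Il10 encodes an anti-inflammatory cytokine, and Ebi3 encodes a subunit shared by interleukin-27 and interleukin-35. Foxp3 expression in CD8+ cells is known from activated and suppressive cells of that lineage.

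On GRCm38 the genes lie at chrX:7573644-7595245 (Foxp3, plus strand), chr1:69531214-69687245 (Ikzf2, minus strand), chr10:128630843-128645991 (Ikzf4, minus strand) and chr8:128358604-128503363 (Nrp1, plus strand). Lrrc32 lies at chr7:98489283-98502181 (plus strand), Izumo1r at chr9:14885814-14903949 (minus strand), Il10 at chr1:131019845-131024974 (plus strand) and Ebi3 at chr17:55952640-55957022 (plus strand). They are therefore scattered over 7 chromosomes, with Ikzf2 and Il10 far apart on the same one.

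The stretches upstream of their start sites are shown because most of these genes were lower together in the treated library. RefSeq promoter windows on GRCm38.p6 were matched for 4 of the 8 genes (Foxp3, Nrp1, Izumo1r and Ebi3). Each window is printed 5′ to 3′ on the gene's own strand, up to the first annotated exon base inside it or in full where it holds none. Both Foxp3 stretches and the Nrp1 stretch lie inside the gene spans given above, downstream of the first annotated start. Capitals mark GGAAA, the core bound by NFAT factors, on either strand, and TTCNNNGAA, the core bound by STAT factors, which in the second Foxp3 window overlaps GGAAA. The positions are chrX:7579426-7579566 and chrX:7580233-7580482 for Foxp3, chr8:128358823-128359072 for Nrp1, chr9:14903950-14904017 for Izumo1r and chr17:55952373-55952622 for Ebi3.
Foxp3 start site 1: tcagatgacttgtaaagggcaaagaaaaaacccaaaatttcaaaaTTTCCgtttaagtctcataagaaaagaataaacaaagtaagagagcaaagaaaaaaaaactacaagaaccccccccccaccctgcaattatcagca
Foxp3 start site 2: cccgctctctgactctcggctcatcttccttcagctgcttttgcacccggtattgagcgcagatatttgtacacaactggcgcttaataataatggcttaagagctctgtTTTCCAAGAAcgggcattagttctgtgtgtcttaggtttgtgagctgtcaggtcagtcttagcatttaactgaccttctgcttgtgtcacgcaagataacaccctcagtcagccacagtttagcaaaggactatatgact
Nrp1: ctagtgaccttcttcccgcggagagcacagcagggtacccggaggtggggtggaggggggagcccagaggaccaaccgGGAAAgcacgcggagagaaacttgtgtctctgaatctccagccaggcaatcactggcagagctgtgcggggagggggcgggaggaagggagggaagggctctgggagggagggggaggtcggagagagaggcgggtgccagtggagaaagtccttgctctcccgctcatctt
Izumo1r: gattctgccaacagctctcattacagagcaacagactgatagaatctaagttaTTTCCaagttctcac
Ebi3: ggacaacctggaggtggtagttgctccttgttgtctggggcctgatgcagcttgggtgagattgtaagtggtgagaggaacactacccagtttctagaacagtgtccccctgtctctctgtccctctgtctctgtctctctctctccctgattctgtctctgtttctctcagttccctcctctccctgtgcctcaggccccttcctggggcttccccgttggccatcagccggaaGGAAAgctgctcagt
Each of the 5 printed stretches holds 1 GGAAA, a core that 55.7% of 32536 promoter stretches of 250 bases hold on either strand. The second Foxp3 window also holds TTCNNNGAA, found in 7.04% of those stretches. TGTTTAC or TGTTTGC, the forkhead motif of the family to which Foxp3 belongs, was in none of the 5 and is in 7.31% of all. TATAAA is in 12.3% of all. It was in none of the 5 printed stretches, of which those of 141 and 68 bases are shorter than the stretches compared, and the unprinted part of the first Foxp3 window holds it. These matches describe letters and not binding.

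After filtering, 9155 mSTAR1302 cells with a median of 6260 unique molecular identifiers (UMIs) and 7615 vehicle cells with a median of 8448 UMIs were kept, and 17 cell barcodes occurred in both libraries. T cells, with at least 2 UMIs of Cd3d, Cd3e and Cd3g together, numbered 8718 and 6729. The CD8 gate (a UMI of Cd8a or Cd8b1 without any of Cd4) held 6290 mSTAR1302 cells (72.1% of T cells) and 2460 vehicle cells (36.6%). CD4 cells with a Foxp3 UMI numbered 146 (1.67% of T cells) and 1365 (20.3%), and CD4 cells without one numbered 791 and 622. In addition, 843 and 1302 T cells held both Cd4 and Cd8 UMIs. No doublet caller was applied, so droplets of several cells remain. A CD4 cell whose Cd4 RNA was missed and that held a stray Cd8 UMI falls in the CD8 gate and cannot be told apart there. Cells called CD8 below are cells of this gate. T cells with neither Cd4 nor Cd8 UMIs held Foxp3 in 123 mSTAR1302 and 535 vehicle cells. For each gate and library, UMIs of all its cells were added up and expressed as counts per 1000000 UMIs (CPM), and log2 ratios were taken on CPM plus 1, which understates ratios of low genes.

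Foxp3 was rarer in CD8 cells of the mSTAR1302 library, as a share of cells and as a level. A Foxp3 UMI was found in 193 of 6290 mSTAR1302 cells (3.07%, exact interval 2.66 to 3.52) and in 402 of 2460 vehicle cells (16.3%, 14.9 to 17.9), a difference of -13.3 percentage points (-14.8 to -11.8). With each cell thinned to 3000 UMIs, which kept 5610 and 2340 cells, the shares were 1.60% and 8.50%. The Foxp3 level was 8.36 CPM in mSTAR1302 and 36.2 CPM in vehicle, 4.33-fold lower (interval 3.86 to 4.87). The 2 libraries' counting intervals for Foxp3 lay apart in each of these readings.

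Free RNA can place Foxp3 UMIs in cells that do not make it. Macrophage-gated cells (at least 5 UMIs of C1qa, C1qb, C1qc and Csf1r together and none of the Cd3 genes) served as the reference. They held Foxp3 in 0 of 15 mSTAR1302 cells, which allows a share of up to 20.0%, and in 2 of 63 vehicle cells (3.17%), at median depths of 12158 and 23022 UMIs against 6597.5 and 9865.5 in CD8 cells. In vehicle the CD8 share was above this reference. The reference leaves out macrophage droplets with any Cd3 UMI, so it can understate free T cell RNA. It therefore does not set either share apart from free RNA, and in mSTAR1302 15 cells are also too few. Barcodes of 10 to 100 UMIs, which are mostly empty droplets, held Foxp3 at 27.0 CPM in mSTAR1302 and 152 CPM in vehicle, point levels higher than the CD8 gate in both libraries. They come from 14626 and 68836 barcodes with a median of 11 UMIs each, and their counting intervals are not given here. The part of free RNA in the lower CD8 level was not tested.

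The 2 Ikaros factors were lower alongside Foxp3. Ikzf2 stood at 62.9 CPM in mSTAR1302 CD8 cells and 190 CPM in vehicle, 3.03-fold lower (2.90 to 3.17). Ikzf4 stood at 15.6 CPM and 34.7 CPM, 2.23-fold lower (2.03 to 2.45). Among surface molecules Nrp1 stood at 11.8 CPM and 41.7 CPM, 3.53-fold lower (3.19 to 3.90), the second largest difference of the 8 after Foxp3. Izumo1r stood at 9.30 and 22.7 CPM, 2.44-fold lower (2.16 to 2.75). The other 3 genes were scarce in this gate, with Lrrc32 at 1.52 and 4.70 CPM, Il10 at 3.44 and 8.50 CPM, and Ebi3 at 1.93 and 6.53 CPM.

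All 8 genes were thus at least 2-fold lower in the CD8 gate on the log2 scale. For comparison, 5473 genes reached 20 CPM in one library or the other, of which 4.48% were lower and 0.932% higher by 2-fold or more, and 5 of the 8 genes reached 20 CPM. Among genes of 3 to 20 CPM, where Lrrc32, Il10 and Ebi3 lie, 11.7% were at least 2-fold lower. The count of 8 became 3 with a pseudocount of 5 CPM and 4 when at least 3 Cd8 UMIs were required. The median log2 ratio over all genes was -0.14. Markers of macrophages and monocytes moved with this result: all 12 were detected in both libraries, and their summed level was 238 CPM in mSTAR1302 and 1010 CPM in vehicle CD8 cells. Lists of dendritic cell (297 and 898 CPM), tumour and stroma (78.9 and 215 CPM) and NK and gamma delta T cell genes (68.5 and 186 CPM) were also lower in mSTAR1302. Their part in the result was not tested.

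Genes known from the Treg surface, taken from a separate list of 26 receptors, went the same way less strongly, with 7 of 18 measured genes at least 2-fold lower, none higher and a median log2 ratio of -0.55. Among 25 Treg regulators 1 of 20 measured was lower, with a median of -0.28. Among 22 Treg effector molecules 5 of 19 were lower and 2 were higher, with a median of -0.63.

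**Figure D1:**
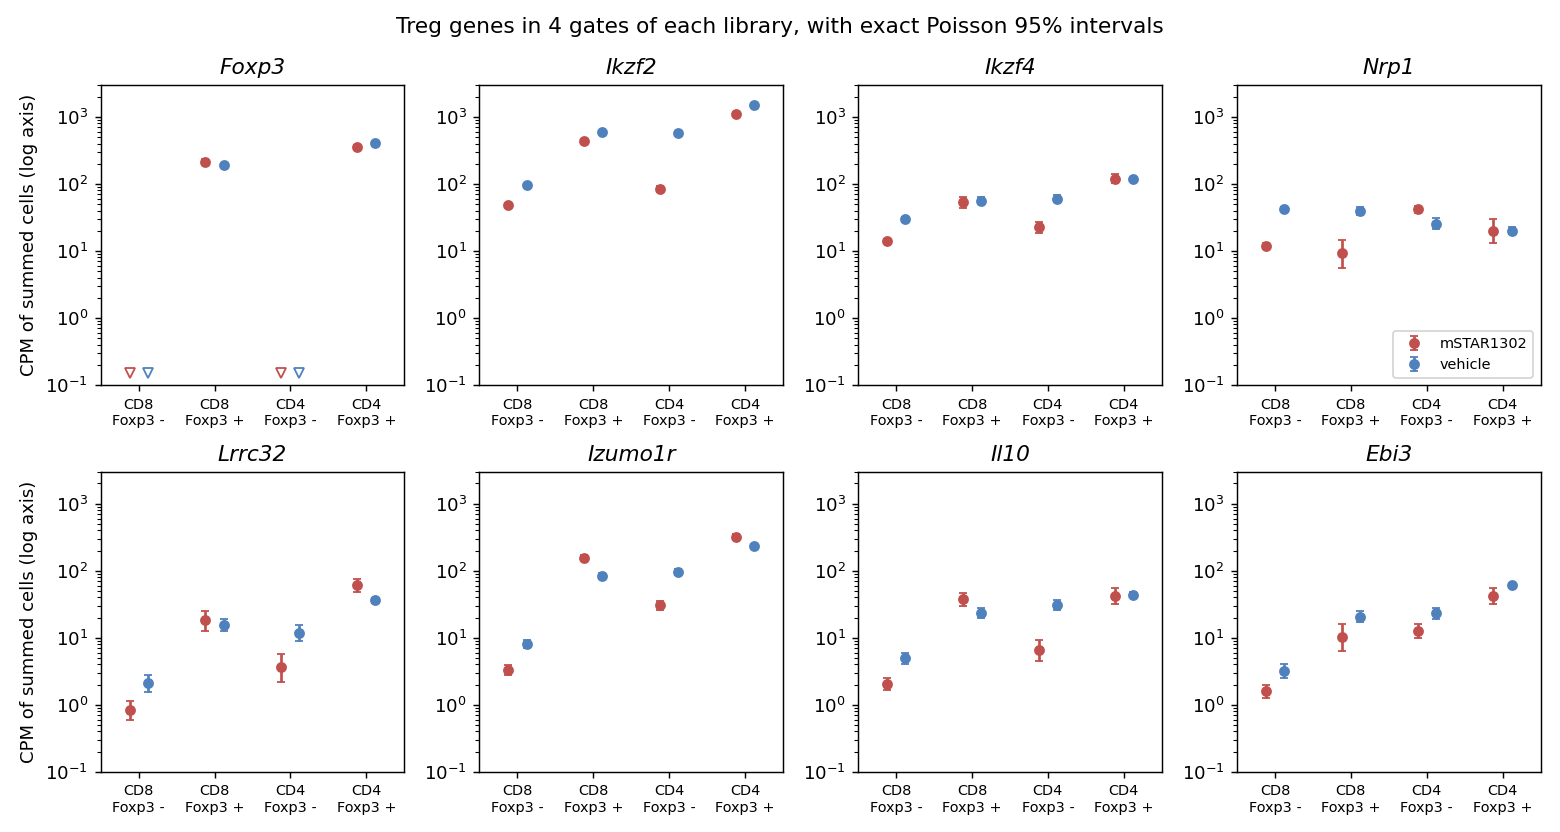
Level of each of the 8 genes in CPM (log axis) in CD8 and CD4 cells without and with a Foxp3 UMI, for mSTAR1302 and vehicle, 1 point per library and gate. Bars are exact Poisson 95% intervals and open triangles mark a level of 0. Apart from Nrp1, the genes are higher with than without Foxp3 within CD8 cells and within CD4 cells of both libraries. The panel of Foxp3 itself is set by the gate.

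Removing the Foxp3+ cells left part of the difference. In CD8 cells without a Foxp3 UMI (6097 and 2058 cells), 3 of the 7 remaining genes were at least 2-fold lower. Among genes of at least 20 CPM this was 2 of the 3 members that reached it, against 3.83% of 5407 genes lower and 1.13% higher, and among genes of 3 to 20 CPM 9.89% were lower. These 3 were Nrp1 (11.9 and 42.3 CPM, log2 ratio -1.74), Izumo1r (3.31 and 8.12 CPM, -1.08) and Ikzf4 (14.0 and 29.5 CPM, -1.02). Ikzf2 lay just under the 2-fold line at 47.7 and 95.7 CPM (-0.99). Il10 (-0.97), Lrrc32 (-0.76) and Ebi3 (-0.71) were lower by less on this scale, at levels of 4.96 CPM or less. Without the added 1 CPM, the ratios of these 4 genes ran from 2.01-fold (Ikzf2) to 2.52-fold lower (Lrrc32), so the count of 3 rests on the pseudocount. The Nrp1 ratio was therefore nearly the same with and without the Foxp3+ cells, while that of Ikzf2 moved from -1.58 to -0.99.

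CD8 cells with a Foxp3 UMI (193 and 402 cells) compared differently. Ikzf2 was at 431 CPM in mSTAR1302 and 588 CPM in vehicle (-0.45), and Ikzf4 at 52.9 and 56.5 CPM. Nrp1 was at 9.34 and 39.3 CPM (-1.96) and Ebi3 at 10.4 and 20.5 CPM (-0.92). Izumo1r was at 155 and 83.9 CPM, 1.85-fold higher in mSTAR1302 (1.59 to 2.14). Il10 was at 37.4 and 23.4 CPM, but 30 of its 72 mSTAR1302 UMIs (41.7%) came from 1 cell. Nrp1 was the member of this gate past 2-fold between the libraries, on 18 and 218 UMIs.

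In CD4 cells without a Foxp3 UMI, 5 of 7 genes were at least 2-fold lower in mSTAR1302. Among genes of at least 20 CPM this was 4 of 6, against 5.00% of 5518 genes lower and 0.852% higher, and among genes of 3 to 20 CPM, where Lrrc32 lies, 18.0% were lower. Ikzf2 showed the largest difference, with 84.0 CPM in mSTAR1302 and 572 CPM in vehicle (6.80-fold lower, 6.14 to 7.55). Il10 was at 6.51 and 30.8 CPM (-2.08), Izumo1r at 30.6 and 96.5 CPM (-1.62), Lrrc32 at 3.64 and 11.8 CPM (-1.47) and Ikzf4 at 22.6 and 60.6 CPM (-1.39). Ebi3 was at 12.6 and 23.1 CPM (-0.82). Nrp1 went the other way, at 41.7 CPM in mSTAR1302 and 25.7 CPM in vehicle (1.62-fold higher, 1.29 to 2.06). The same macrophage and monocyte list summed to 301 and 1660 CPM in this gate, and its part was not tested. Of the cells in this gate, 3.79% in mSTAR1302 and 20.6% in vehicle held at least 3 of the 7 genes. Cells whose Foxp3 RNA was missed cannot be told apart from cells without Foxp3 here.

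CD4 cells with a Foxp3 UMI held the highest levels of most of these genes in both libraries. None of the 7 genes was 2-fold lower or higher, against 1.74% of 5732 genes lower and 0.488% higher. With scaling by the median ratio in place of the total, the split over all genes in this gate moved from 28 higher and 100 lower to 42 higher and 76 lower. Foxp3, which defines the gate, was at 350 and 405 CPM, and Ikzf2 at 1118 and 1522 CPM (-0.44). Lrrc32 was at 61.0 CPM in mSTAR1302 and 36.3 CPM in vehicle (1.68-fold higher, 1.30 to 2.14), and Izumo1r at 316 and 235 CPM (1.35-fold higher, 1.21 to 1.5). Ebi3 was at 42.5 and 61.8 CPM (-0.53). Ikzf4, Nrp1 and Il10 had ratio intervals that included 1. The interval for Nrp1, 0.640 to 1.51, rests on 25 and 288 UMIs.

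**Figure D2:**
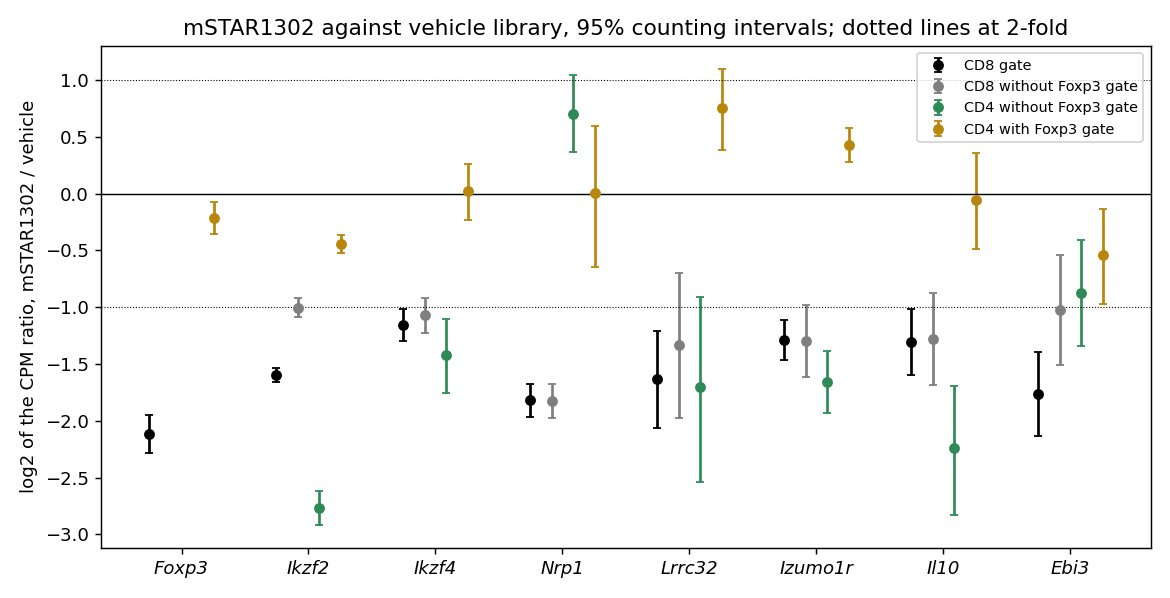
Log2 of the CPM ratio of mSTAR1302 over vehicle (without a pseudocount) for each of the 8 genes in the CD8 gate, in its cells without Foxp3 and in the CD4 gates without and with Foxp3, 1 point per gate, with 95% counting intervals and dotted lines at 2-fold. Points for the whole CD8 gate lie under the lower line for all 8 genes, those for CD4 cells with Foxp3 lie between the lines, and Nrp1 in CD4 cells without Foxp3 lies above 0.

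The location of the Foxp3 UMIs is set beside the size of each gate. Of 2648 Foxp3 UMIs in the mSTAR1302 library 15.4% were in the CD8 gate and 16.5% in CD4 cells with Foxp3. Of 16616 in the vehicle library 6.31% were in the CD8 gate and 35.2% in CD4 cells with Foxp3. The gates also differed in size: the CD8 gate held 50.6% of all UMIs of the mSTAR1302 library and 26.3% of those of vehicle, and CD4 cells with Foxp3 held 1.29% and 13.1%. T cells with both Cd4 and Cd8 UMIs held 24.4% and 25.4% of the Foxp3 UMIs, against 9.72% and 18.7% of all UMIs. Barcodes under 1000 UMIs held 24.8% and 18.3% of the Foxp3 UMIs, near their 22.9% and 19.1% of all UMIs. Nrp1 was distributed otherwise, with 37.9% and 33.9% of its UMIs in the CD8 gate and 1.64% and 8.08% in CD4 cells with Foxp3.

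Inside the CD8 gate, Foxp3+ cells more often stood at the edge of the gate. A single Cd8 UMI was found in 29.9% of the vehicle CD8 cells with Foxp3 (exact interval 25.4 to 34.6) and in 6.37% of those without (5.35 to 7.51). In mSTAR1302 the shares were 17.6% (12.5 to 23.7) and 6.35% (5.75 to 6.99). At the other end, 12 or more Cd8 UMIs were found in 42.3% against 65.3% of vehicle cells and in 36.3% against 32.5% of mSTAR1302 cells. Among cells with at least 3 Cd8 UMIs, the difference in the share with Foxp3 between the libraries was -8.86 percentage points.

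**Figure D3:**
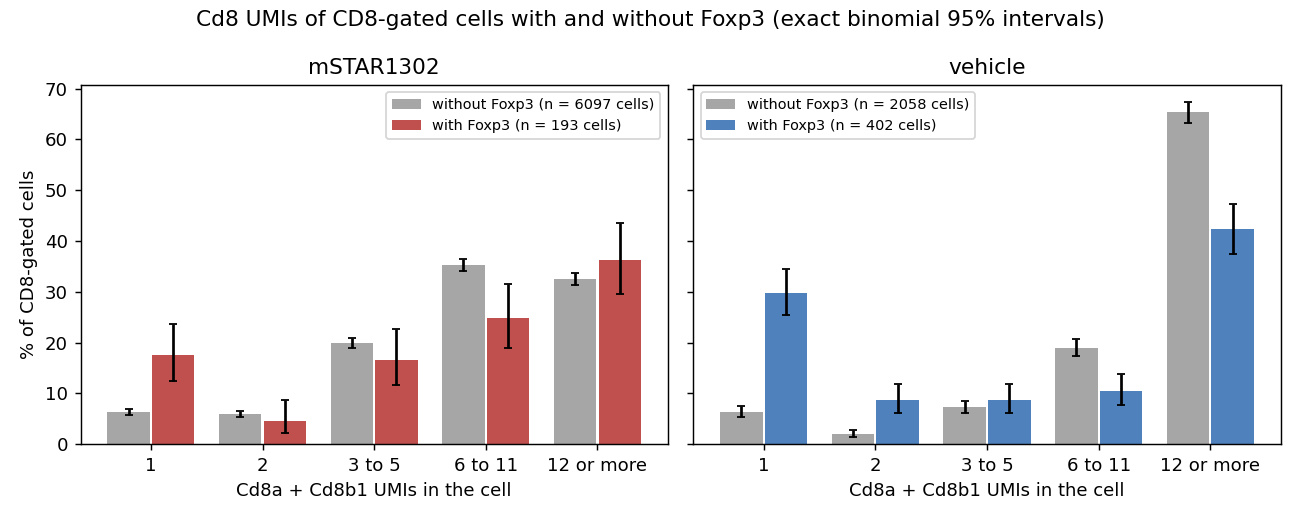
Share of CD8-gated cells (%) by their number of Cd8a and Cd8b1 UMIs, for cells with and without a Foxp3 UMI in each library, with exact binomial 95% intervals. The bars at 1 Cd8 UMI are taller for cells with Foxp3 in both libraries, at 29.9% in vehicle and 17.6% in mSTAR1302.

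Most of the other genes accompanied Foxp3 in CD8 cells, and Nrp1 did not. In vehicle, Izumo1r was 10.3-fold higher in CD8 cells with a Foxp3 UMI than in those without (8.71 to 12.3). Lrrc32 was 7.48-fold higher, Ebi3 6.4-fold, Ikzf2 6.15-fold and Il10 4.72-fold. Il10 lost its 2-fold difference among cells with 1 or 2 Cd8 UMIs, with log2 ratios of 0.63 in vehicle and 0.53 in mSTAR1302 against 2.03 and 3.65 over the whole gate. Ikzf4 was 1.92-fold higher (1.67 to 2.19), and Nrp1 stood at 0.928 of its level without Foxp3 (0.798 to 1.08).

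In mSTAR1302 the order was similar and the ratios were larger. Izumo1r was 46.9-fold higher with Foxp3 (38.5 to 57.3), Lrrc32 21.8-fold, Ikzf2 9.02-fold (8.32 to 9.78), Ebi3 6.57-fold and Ikzf4 3.77-fold. Il10 was 18.2-fold higher, with 41.7% of its UMIs from 1 cell. Nrp1 stood at 0.783 of its level without Foxp3 (0.461 to 1.25). The larger ratios went with lower levels in mSTAR1302 cells without Foxp3, such as 3.31 CPM against 8.12 CPM for Izumo1r. Counted on the log2 scale, 5 of 7 genes in vehicle and 6 of 7 in mSTAR1302 were at least 2-fold higher with Foxp3. Among genes of at least 20 CPM this was 4 of 6 in vehicle and 4 of 4 in mSTAR1302. Over all such genes the shares were 4.18% higher and 0.244% lower in vehicle and 2.53% higher and 0.266% lower in mSTAR1302. Among genes of 3 to 20 CPM 9.09% and 6.00% were higher.

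In CD4 cells of the vehicle library the same split gave 2.66-fold for Ikzf2, 2.43-fold for Izumo1r, 1.95-fold for Ikzf4 and 0.777 for Nrp1. In mSTAR1302 it gave 13.3-fold for Ikzf2, 10.3-fold for Izumo1r, 16.8-fold for Lrrc32 and 0.481 for Nrp1. Over all genes in the CD4 split, 4.45% were higher and 3.73% lower in vehicle, and 8.65% higher and 2.93% lower in mSTAR1302. Nrp1 was thus below its level in Foxp3-negative cells in each of the 4 splits, although in the CD8 gate the intervals included 1.

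Cells with Foxp3 also held more of these genes at once. Of vehicle CD8 cells with Foxp3, 40.8% held UMIs of at least 3 of the other 7 genes, against 6.66% of those without and 70.5% of CD4 cells with Foxp3. In mSTAR1302 the shares were 27.5%, 0.869% and 56.8%. Among CD4 cells without a Foxp3 UMI the share was 20.6% in vehicle and 3.79% in mSTAR1302. None of the 7 was found in 13.4% of vehicle and 26.9% of mSTAR1302 CD8 cells with Foxp3. The CD8 cells with Foxp3 were deeper in mSTAR1302, with a median of 8273 UMIs against 6547 without Foxp3, and nearly equal in vehicle, at 9983 and 9847. For Ikzf2, thinning to 3000 UMIs gave shares of 61.4% with and 17.6% without Foxp3 in vehicle (73.4% and 34.4% before thinning), and 49.1% and 10.3% in mSTAR1302 (62.2% and 18.5%).

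In CD8 cells Ikzf2 and Izumo1r were higher in cells with more Foxp3 UMIs. In vehicle CD8 cells with 0, 1, 2 and 3 or more Foxp3 UMIs (2058, 205, 59 and 138 cells), Ikzf2 was at 95.7, 258, 530 and 1090 CPM. Izumo1r was at 8.12, 29.1, 67.0 and 171 CPM over the same steps. Nrp1 was at 42.3, 48.6, 40.4 and 25.3 CPM, so its lowest level lay in the cells richest in Foxp3. In mSTAR1302 CD8 cells (6097, 107, 34 and 52 cells) Ikzf2 was at 47.7, 222, 604 and 649 CPM and Izumo1r at 3.31, 47.3, 132 and 317 CPM. The intervals of the last 2 Ikzf2 values, 518 to 699 and 589 to 712 CPM, overlap. In vehicle CD4 cells the levels did not order by Foxp3 UMIs beyond the first, with Ikzf2 at 1497, 1545 and 1520 CPM and Izumo1r at 242, 263 and 227 CPM for 1, 2 and 3 or more. In mSTAR1302 CD4 cells (41, 36 and 69 cells) they did, so the order was not particular to CD8 cells. Ikzf2 was at 873, 1027 and 1253 CPM there and Izumo1r at 172, 266 and 394 CPM, with the intervals at 1 and 2 UMIs overlapping for both. Il2ra, which encodes CD25, was at 147, 224, 386 and 768 CPM in vehicle CD8 cells and at 237, 334, 877 and 980 CPM in mSTAR1302 CD8 cells. A single Foxp3 UMI was the finding in 51.0% of vehicle and 55.4% of mSTAR1302 CD8 cells with Foxp3, against 17.7% and 28.1% of CD4 cells with Foxp3.

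Lyz2, a macrophage gene, followed another course, at 420, 1834, 559 and 31.1 CPM in vehicle and 26.8, 499, 13.5 and 4.42 CPM in mSTAR1302. Its highest level therefore lay in cells with 1 Foxp3 UMI, and its lowest in those with 3 or more. Gzmf, a granzyme of cytotoxic cells, was at 439, 111, 52.1 and 4.74 CPM in vehicle and at 205, 172, 23.6 and 227 CPM in mSTAR1302. The latter showed no such order. Of the Gzmf UMIs in CD8 cells with Foxp3, 154 of 360 in vehicle and 148 of 325 in mSTAR1302 lay in 1 cell. In mSTAR1302 296 lay in 3 cells, so its steps rest on a few cells.

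**Figure D4:**
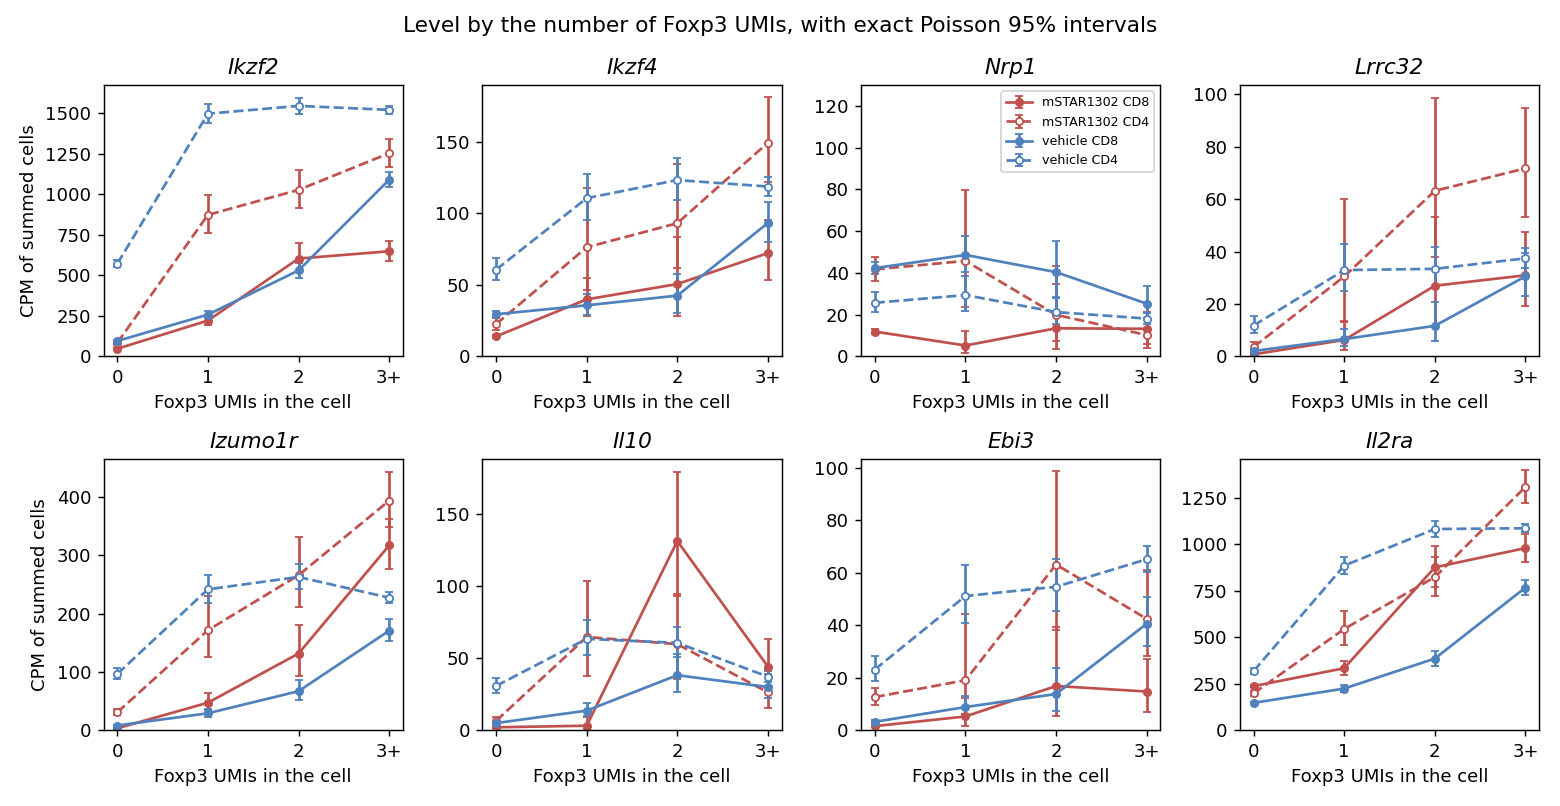
Level in CPM against the number of Foxp3 UMIs in the cell (0, 1, 2, 3 or more) for CD8 and CD4 cells of each library, with exact Poisson 95% intervals. In vehicle CD8 cells Ikzf2 runs from 95.7 to 1090 CPM, whereas in vehicle CD4 cells it is level from 1 UMI onward. In mSTAR1302 CD4 cells Ikzf2 runs from 873 CPM at 1 UMI to 1253 CPM at 3 or more. Nrp1 is not higher with more Foxp3 UMIs.

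Other genes of the Treg surface accompanied Foxp3 in CD8 cells. Of the list of 26 receptors, 11 of 20 measured genes were at least 2-fold higher in vehicle cells with Foxp3 and none was lower, with a median log2 ratio of 1.07 against 0.08 over all genes. In mSTAR1302 13 of 19 were higher and none lower, with a median of 1.44 against 0.05. Klrg1, an inhibitory lectin-like receptor, was at 89.1 CPM with and 10.3 CPM without Foxp3 in vehicle, and at 54.0 and 1.62 CPM in mSTAR1302. Itgae, the CD103 integrin chain that binds E-cadherin, was at 133 and 19.1 CPM in vehicle and 112 and 5.85 CPM in mSTAR1302. Itgb8, an integrin chain that helps activate TGF-beta, was at 44.3 and 5.39 CPM in vehicle and 20.8 and 0.725 CPM in mSTAR1302. Tnfrsf4, the co-stimulatory receptor OX40, was at 429 and 111 CPM in vehicle and 612 and 60.9 CPM in mSTAR1302. These levels were spread over many cells: Itgae was found in 205 of 402 vehicle and 76 of 193 mSTAR1302 cells with Foxp3, and Klrg1 in 146 and 34.

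Transcription factors and effector molecules of the Treg lists followed in part. Of 21 regulators measured in each library, 3 were higher in vehicle (median 0.21), and 4 were higher and 1 lower in mSTAR1302 (median 0.36). Maf, a factor that drives interleukin-10, was at 310 CPM with and 42.4 CPM without Foxp3 in vehicle, in 254 of 402 cells, and at 284 and 49.8 CPM in mSTAR1302. Prdm1, which encodes Blimp-1, was at 42.7 and 16.1 CPM in vehicle and 52.9 and 22.5 CPM in mSTAR1302. Bach2, a factor of quiescent T cells, was the regulator past 2-fold in the lower direction in mSTAR1302 (12.5 and 27.3 CPM), and in vehicle it was at 46.6 and 78.0 CPM (-0.73). Of effector molecules, 7 of 20 were higher in vehicle (median 0.57) and 10 of 18 in mSTAR1302 (median 1.05), with none lower. Penk, which encodes an enkephalin precursor, was at 255 and 57.9 CPM in vehicle and 99.1 and 12.4 CPM in mSTAR1302. Gzmb, which stands in both the Treg effector and the CD8 lists, was at 667 and 289 CPM in vehicle and 2731 and 1324 CPM in mSTAR1302.

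The gene with the highest ratio in vehicle was Rln3, which encodes a relaxin-family peptide hormone. It was at 107 CPM with and 6.07 CPM without Foxp3 (17.6-fold), in 115 of 402 cells. In mSTAR1302 it was at 60.2 and 2.41 CPM (25-fold), in 25 of 193 cells. Rln3 was also the gene whose level followed Foxp3 most closely over 8 sums, the CD8, CD4, double and neither gates of both libraries (Pearson r = 0.995 on log2 CPM plus 1, a description over sums that share libraries). Of 6396 genes ranked this way Ikzf2 was the 4th (r = 0.990), and Slc15a3, Tmem120a, Map3k5, Swap70, Dnaja2 and Itgae completed the top 8. The correlation does not measure the size of a difference. Over the 8 sums Dnaja2 ran from 116 to 141 CPM and Tmem120a from 12.4 to 24.5 CPM, against 8.36 to 312 CPM for Foxp3. Il10 ranked 26, Ikzf4 29, Lrrc32 37, Izumo1r 39 and Ebi3 50, and Nrp1 ranked 3232 (r = 0.449).

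Genes known to be kept low in regulatory T cells were partly lower beside Foxp3. Of 14 such genes measured in vehicle 4 were at least 2-fold lower and 1 higher (median -0.47), and of 13 in mSTAR1302 4 were lower and none higher (median -0.29). Il2, the T cell growth factor, was at 1.80 CPM with and 31.9 CPM without Foxp3 in vehicle and at 2.08 and 28.7 CPM in mSTAR1302. Il3 was at 10.8 and 56.0 CPM in vehicle and 3.11 and 69.9 CPM in mSTAR1302, and Tcf7, a factor of memory-like T cells, at 21.6 and 46.1 CPM and at 21.8 and 46.9 CPM. Ifng was lower with Foxp3 in vehicle (546 and 1119 CPM, -1.04) and was at 1248 and 1430 CPM in mSTAR1302 (-0.20).

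Cytotoxic genes differed between the libraries in this split. In vehicle 3 of 21 CD8 lineage and cytotoxic genes were lower and 1 higher (median -0.80). Gzmf was at 64.8 CPM with and 439 CPM without Foxp3, with 154 of its 360 UMIs in 1 cell, and Gzmd was at 73.1 and 291 CPM. Reads of Gzmc, Gzmd, Gzme and Gzmf, which are near-identical neighbours, can be divided between them by the counting. In mSTAR1302 1 of 22 was lower and 2 were higher (median -0.20). Gzmf was at 169 and 205 CPM there, but 148 of its 325 UMIs with Foxp3 lay in 1 cell and 296 in 3 cells, so its ratio in mSTAR1302 rests on a few cells. Division genes were higher in vehicle, 5 of 16 (median 0.78), and none of 15 in mSTAR1302 was past 2-fold (median 0.05). The difference between the libraries in these splits was not tested.

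**Figure D5:**
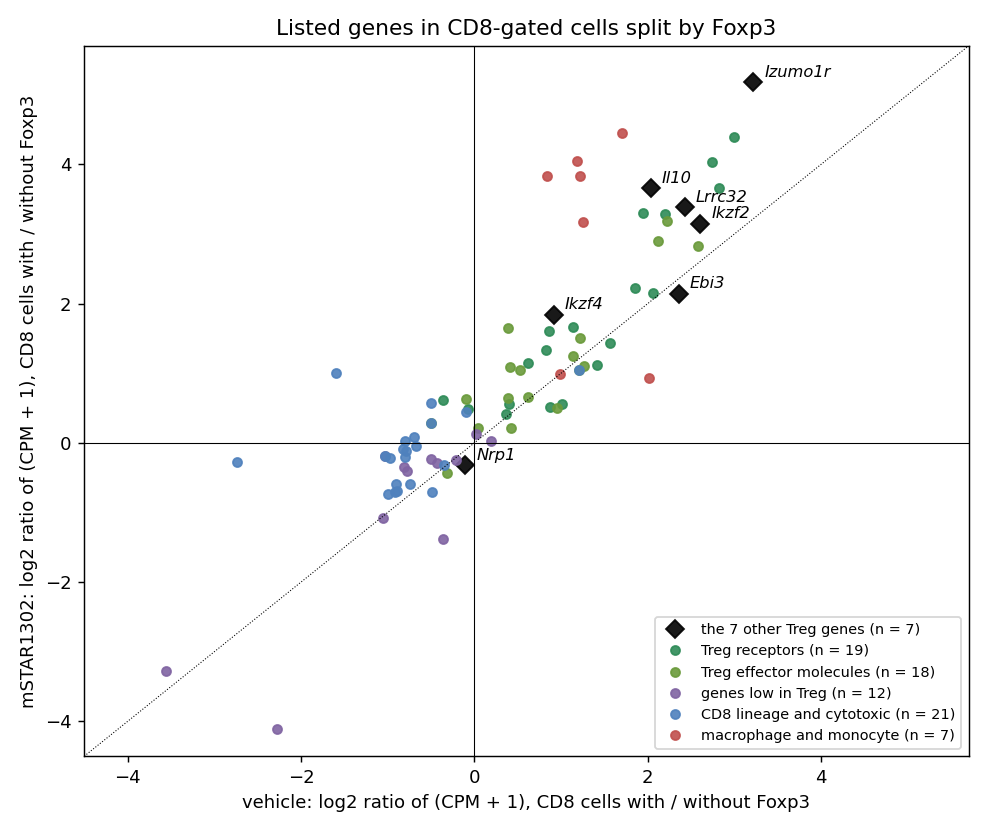
Log2 ratio of CPM plus 1 between CD8 cells with and without a Foxp3 UMI, vehicle on the horizontal and mSTAR1302 on the vertical axis, 1 point per gene. Diamonds are the 7 genes other than Foxp3, circles are listed genes with at least 20 CPM in either sum of both libraries, and the dotted line marks equal ratios. Most Treg receptor points lie above 0 in both libraries, with Itgae at 2.74 and 4.04, and Nrp1 lies near 0.

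Of 240 genes at least 2-fold higher with Foxp3 in vehicle CD8 cells and 133 in mSTAR1302 CD8 cells, 71 were shared, which is 29.6% of the first list and 53.4% of the second. These lists were 4.18% of 5738 and 2.53% of 5255 genes tested, and 5069 genes were tested in both. The 71 include C1qc, Ms4a7 and Gatm, whose mSTAR1302 UMIs came almost wholly from 1 cell each. With the genes higher in the CD4 split of the same library, the vehicle list shared 72 (30.0% of it and 27.4% of the CD4 list) and the mSTAR1302 list shared 82 (61.7% and 17.2%). The CD4 lists were 4.45% and 8.65% of the genes tested, and 5416 and 5028 genes were tested in both splits. The overlap that such shares alone would give was not computed.

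Markers of other cell types moved with this split. The macrophage and monocyte list summed to 1960 CPM in vehicle CD8 cells with Foxp3 and 784 CPM in those without, with all 12 genes detected in both. It summed to 848 and 213 CPM in mSTAR1302, where all 12 were also detected. Tumour and stroma markers summed to 452 and 159 CPM in vehicle and 57.6 and 79.8 CPM in mSTAR1302, where Krt8, a keratin of the tumour line's epithelial origin, was at 0 with Foxp3. In mSTAR1302, 6 of the 10 genes with the highest ratio (Ccl12, Ms4a7, Mmp12, C1qc, Gatm and C1qb) came almost wholly from 1 cell each, with 213 of 214 Mmp12 UMIs, 116 of 117 Ccl12 UMIs and 118 of 121 C1qc UMIs in the top cell. In vehicle, 857 of 989 Hmox1 UMIs, 321 of 375 Clec4n UMIs and 151 of 167 Adm UMIs lay in 1 cell each. Without cells holding at least 2 UMIs of C1qa, C1qb, C1qc, Csf1r, Lyz2, Krt8 and Krt18 together, the vehicle count of genes higher with Foxp3 was 135 in place of 240. The 24 member ratios past 2-fold kept their direction without those cells.

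Ikzf2 and Izumo1r were highest in Foxp3+ cells with few Cd8 UMIs, and in those with more they were still above cells without Foxp3. In vehicle CD8 cells with Foxp3 and 1 or 2 Cd8 UMIs (155 cells), Ikzf2 was at 886 CPM and Izumo1r at 143 CPM. With 3 or more Cd8 UMIs (247 cells) they were at 429 and 52.0 CPM, against 85.5 and 6.69 CPM in cells without Foxp3 at the same Cd8 level. In mSTAR1302 Ikzf2 was at 850 CPM in 43 cells with 1 or 2 Cd8 UMIs and 349 CPM in 150 cells with more, against 46.3 CPM without Foxp3. Izumo1r was at 398, 108 and 2.89 CPM in the same order. Nrp1 was at 37.6 CPM with and 39.2 CPM without Foxp3 in vehicle cells of 3 or more Cd8 UMIs.

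The 2 parts of the Foxp3+ CD8 cells also differed in lineage genes. Runx3, the factor of the CD8 lineage, was at 84.1 CPM in vehicle Foxp3+ cells with 1 or 2 Cd8 UMIs and 241 CPM in those with more, against 247 CPM in Foxp3-negative cells with 3 or more and 123 CPM in CD4 cells with Foxp3. In mSTAR1302 it was at 98.7 and 225 CPM, against 254 and 122 CPM. The CD8 lineage and cytotoxic list summed to 1800 and 8789 CPM in the 2 parts in vehicle and to 3955 and 14087 CPM in mSTAR1302, with 2303 and 2836 CPM in CD4 cells with Foxp3. In vehicle, Foxp3-negative cells with 1 or 2 Cd8 UMIs were low too, with Runx3 at 128 CPM and the list at 2899 CPM, so there the lower values went with few Cd8 UMIs and were not particular to Foxp3+ cells. In mSTAR1302 such Foxp3-negative cells held Runx3 at 254 CPM and the list at 10646 CPM. The macrophage list in Foxp3+ cells was at 4892 CPM with few and 389 CPM with more Cd8 UMIs in vehicle and at 3726 and 288 CPM in mSTAR1302. The value of 3726 CPM is a sum over 43 cells. Among all mSTAR1302 CD8 cells with Foxp3, the top cell for each gene held 107 of 112 C1qb, 118 of 121 C1qc and 71 of 75 Ms4a7 UMIs. In vehicle it held 167 of 334, 238 of 360 and 82 of 222, so these sums need not describe most cells. In Foxp3-negative cells it was at 7748 and 238 CPM in vehicle and at 807 and 172 CPM in mSTAR1302. Lyz2 in cells with 3 or more Cd8 UMIs was at 140 CPM with and 59.3 CPM without Foxp3 in vehicle and at 6.82 and 7.75 CPM in mSTAR1302. The part of macrophage RNA in these values was not tested.

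Set beside CD4 cells with Foxp3, CD8 cells with Foxp3 held less of most members. In vehicle, Izumo1r was 2.80-fold higher in the CD4 cells (2.54 to 3.09), Ebi3 3.01-fold, Ikzf2 2.59-fold, Lrrc32 2.31-fold and Ikzf4 2.10-fold. In mSTAR1302, Ebi3 was 4.10-fold, Lrrc32 3.36-fold, Ikzf2 2.60-fold and Izumo1r 2.04-fold higher. Nrp1 was the exception in vehicle, at 20.0 CPM in CD4 and 39.3 CPM in CD8 cells with Foxp3, a ratio of 0.509 (0.425 to 0.609), and in mSTAR1302 it was at 20.1 and 9.34 CPM. Macrophage-gated vehicle cells held Nrp1 at 51.0 CPM, above either.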

How the data were processed

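Each library is a matrix of whole-number UMI counts that the authors made per barcode and gene with Cell Ranger. The submitters' processing notes name version 6.0.1 and the mm10 genome, and the file headers name version 4, so the version is uncertain. The notes also name FastQC, MultiQC 1.9 and Seurat. Per the labels' protocols, 3' libraries were read on a NovaSeq, aiming at 50000 or more reads for each cell. The labels give no annotation release. The matrices hold barcodes before any cell calling, 1728776 and 1910622 barcodes and 96486469 and 110026997 UMIs (mSTAR1302 and vehicle).

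Barcodes with at least 1000 UMIs, at least 500 genes and at most 10% mitochondrial UMIs were kept. The libraries were then gated and summed as described above, with no doublet caller, no clustering and no integration. A call is a ratio of at least 2-fold on log2 of CPM plus 1, among genes of at least 20 CPM in either sum for counts over all genes. CPM carries exact Poisson, shares exact Clopper-Pearson, share differences Newcombe and ratios exact conditional binomial intervals, all at 95%. UMI counts correct for PCR copies but not for loss of molecules, so they cover counting error only. Cells are not replicates, so no p-value was computed.

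The 8 genes and the gene lists were chosen with earlier results of these data known. Beside the 8 genes, the text names, in each library, genes among the 10 highest and 10 lowest ratios of CD8 cells with over without Foxp3, up to 6 genes per list with the largest ratio in vehicle, and the 8 genes most like Foxp3. Runx3, Lyz2, Il2ra, Gzmf, Cd8a, Cd8b1 and Zbtb7b at steps of Foxp3 or Cd8 UMIs fall outside that rule in part and were chosen after values were seen. GENCODE M21 (GRCm38) held 32158 of the 32285 gene identifiers. In all, 16 alternatives were run. The scripts used SciPy 1.17.1, NumPy 2.4.6, pandas 2.3.3, matplotlib 3.10.9 and Python 3.11.15 and were tested on simulated counts.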

Additional observations from a re-analysis of the deposited data

Results flagged for a closer look

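Each value in this paragraph is a log2 ratio of mSTAR1302 over vehicle in one gate minus that in another, and each pair of ratios lay on opposite sides of 0 with counting intervals apart from 1-fold. With 1 library per group these differences have no replicate check, and the difference itself was not tested. Nrp1 was lower in mSTAR1302 in CD8 cells (-1.74) and higher in CD4 cells without Foxp3 (0.68), a difference of -2.41. Lrrc32 was lower in CD8 cells (-1.18) and higher in CD4 cells with Foxp3 (0.73), a difference of -1.91, and against CD4 cells without Foxp3 (-1.47) the difference of the CD4 gates was -2.2. Izumo1r was lower in CD8 cells (-1.20) and also in the Foxp3-negative CD4 cells (-1.62), and higher in CD4 cells with Foxp3 (0.43), with differences of -1.63 and -2.05. The CD4 gates are defined by Foxp3 detection, and the mSTAR1302 gate with Foxp3 held 146 cells. The CD8 gate is not so defined, and 3.07% of its mSTAR1302 and 16.3% of its vehicle cells held Foxp3. In CD8 cells with Foxp3, Lrrc32 in mSTAR1302 was 1.16-fold its vehicle level (0.760 to 1.73). Izumo1r was 1.85-fold there (1.59 to 2.14), the same direction as in CD4 cells with Foxp3.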

How the results depend on the processing

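Of 16 alternatives 13 were planned and 3 were added after seeing the data (CD8 cells without Foxp3, cells without markers of other types, and cells with 1 or 2 Cd8 UMIs). The 24 member ratios past 2-fold kept their direction in 280 of 280 recomputed values and stayed past 2-fold in 262, with 0.53 the smallest size on the log2 scale. Other named genes kept their direction in 910 of 949. No paired analysis was possible because each group is 1 library and the labels give no replicate numbers.

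The difference in the share of CD8 cells with Foxp3 was -8.86 points with at least 3 Cd8 UMIs, -9.67 with gates read after thinning to 3000 UMIs and -6.64 with at least 2 Foxp3 UMIs. The Foxp3 log2 ratio in CD8 cells was -1.68, -2.80, -2.27 and -1.63 with at least 3 Cd8 UMIs, after thinning, with cells weighted equally and with a pseudocount of 5 CPM. Members 2-fold lower in the CD8 gate numbered 4 with at least 3 Cd8 UMIs, 3 with a pseudocount of 5 CPM and 3 of 7 in cells without Foxp3, and in CD4 cells with Foxp3 1 after thinning. Scaling by the median of CPM ratios over genes of at least 20 CPM in both libraries, which was -0.12 on the log2 scale in CD8 cells, left Ikzf4 at -0.99. Il10 in CD8 cells was at -0.98 with at most 5% mitochondrial UMIs.

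The vehicle count of 240 genes higher with Foxp3 was 76 with at least 3 Cd8 UMIs, 108 at 50 CPM or more, 825 with no minimum and 135 without cells holding markers of other types. The mSTAR1302 count of 133 was 291 after thinning, 70 at 50 CPM or more, 557 with no minimum, 272 with at least 2 Foxp3 UMIs and 667 in cells with 1 or 2 Cd8 UMIs. The median of the Treg receptors was 1.39 (thinned), 1.33 (at least 2 Foxp3 UMIs) and 1.40 (1 or 2 Cd8 UMIs) in vehicle, and 2.04 and 1.86 in mSTAR1302 under the last 2 of these. Il10 with over without Foxp3 was at 0.53 in mSTAR1302 and 0.63 in vehicle at 1 or 2 Cd8 UMIs.

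Log2 ratios with over without Foxp3 reversed for some named genes, mostly those held by 1 cell. In mSTAR1302, C1qc was -0.25 at most 5% mitochondrial UMIs and Gatm -0.42 without cells above 20000 UMIs. With at least 3 Cd8 UMIs, Mmp12 was -0.45, C1qc -0.15 and C1qb -0.066. After thinning, Ccl12 was -0.45, Ms4a7 -0.79, Mmp12 -0.51, C1qc -1.14 and Gatm -1.22. With at least 2 Foxp3 UMIs, Ccl12 was -0.60, Ms4a7 -0.87, Mmp12 -2.68, C1qc -1.95 and C1qb -2.05. Without cells holding markers of other types, Ccl12 was -0.50, Ms4a7 -0.61, Mmp12 -0.027, C1qc -0.11 and C1qb -0.026. Gzmc was -1.26 with 1 or 2 Cd8 UMIs.

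In vehicle, with at least 3 Cd8 UMIs, Clec4n was -0.23, Adm -0.77, Hmox1 -0.10 and Igfbp4 -0.14. Without cells above 20000 UMIs, Clec4n was -0.11 and Igfbp4 -0.26. After thinning, Clec4n was -0.92, Igfbp4 -1.49 and Ccnb2 -0.98. With at least 2 Foxp3 UMIs, Clec4n was -0.38 and Hmox1 -0.21. Without cells holding markers of other types, Clec4n was -0.036 and Igfbp4 -0.33. With 1 or 2 Cd8 UMIs, Gzmc was 0.10, Serpine2 0.0054, Igfbp4 -0.035, Ccnb1 -0.027 and Ube2c -0.035. The cause of these changes was not tested. Depth limits Lrrc32, Il10 and Ebi3 most, and Nrp1 in mSTAR1302 cells with Foxp3.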
